A study of Mus musculus with 18 samples.

Results

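The 45 genes examined encode nuclear subunits and assembly factors of mitochondrial complex I, and they were the rows whose symbol begins with Nduf, out of 34745 rows in the gene table. Symbols holding -ps or ending in os were to be left out, and a mean of at least 10 counts over the 6 libraries of at least 1 tissue was required. All 45 rows met both conditions, and the lowest count of any member in any library was 32. The members comprised 7 core subunits (among them Ndufs1, Ndufs3, Ndufs7, Ndufs8, Ndufv1 and Ndufv2), 29 accessory subunits and 7 assembly factors (Ndufaf1 to Ndufaf7). Ndufa4, now known as a subunit of complex IV, and its paralogue Ndufa4l2 also carry the prefix and are described apart. The genes lay on 16 chromosomes.

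Brain, kidney and gastrocnemius, a calf muscle built mainly of fast fibres, were taken from male C57BL/6 mice labelled WT, and polyA RNA was sequenced in 18 libraries. The old control group received saline by gavage, and the other group received SeMSNs, which the study's title calls a nano-selenium supplement. Both groups were on a normal diet, entered the study at 18 months of age and were sampled at 23 months, with 3 libraries per tissue and group. The dose is uncertain: the design text gives 5 mg/kg of a 1 mg/mL preparation, 2 times every 2 days, whereas the treatment protocol gives 10 mg/kg daily. SeMSNs library 3 carries the number 4 in the labels. No untreated young group was analysed here, so a difference from old controls says nothing of a younger level. No label ties a library to a mouse, so p-values measure the spread between libraries.

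Complex I passes electrons from NADH to ubiquinone and pumps protons out of the mitochondrial matrix, which makes it the main entry point of the respiratory chain. Core subunits, which bacteria share, hold the flavin and the iron-sulfur clusters, accessory subunits surround and stabilise them, and assembly factors help to build the complex without staying in it. The core of the membrane arm is encoded by the mitochondrial genome, so both genomes contribute to each complex. Brain, kidney tubules and muscle all depend heavily on it.

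Promoter windows from RefSeq (GRCm38.p6), running from 250 bases before to 50 bases after the annotated start, were held for 39 of the 45 members. They were searched on both strands for motifs linked to respiratory genes. Those of the members with the smallest p in brain (Ndufb2) and muscle (Ndufaf5) are shown with 3 that hold 2 matches. Matches to the CRE, NRF1, YY1 and ETS motifs are in capitals and the rest is in lower case, 5′ to 3′ on the strand of the gene. Not shown, among others, are the windows of Ndufb4, with 3 NRF1 matches, and of Ndufa12, with 0 matches to these motifs. Ndufa12 had the smallest p in kidney. Ndufb2 lies at chr6:39592315-39592614 (+) and holds the CRE motif TGACGTCA at −14 to −7 from the start. Ndufaf5 lies at chr2:140170396-140170695 (+) and holds the NRF1 motif, GCGCA and GCGC with any 1 base between, at +17 to +26. Ndufs6 lies at chr13:73328433-73328732 (−), with NRF1 at −16 to −7 and the YY1 motif AAGATGGC at +34 to +41. Ndufa11 lies at chr17:56717512-56717811 (+), with CRE at −158 to −151 and NRF1 at −60 to −51. Ndufs3 lies at chr2:90904672-90904971 (−), with the ETS motif CCGGAAG at −27 to −21 and again, on the other strand, at +2 to +8.
Ndufb2: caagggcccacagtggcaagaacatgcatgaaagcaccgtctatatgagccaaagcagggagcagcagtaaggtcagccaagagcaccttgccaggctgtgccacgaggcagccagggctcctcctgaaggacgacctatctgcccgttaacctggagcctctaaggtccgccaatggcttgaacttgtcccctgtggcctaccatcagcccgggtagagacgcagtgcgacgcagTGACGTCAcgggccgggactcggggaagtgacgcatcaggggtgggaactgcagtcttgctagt
Ndufaf5: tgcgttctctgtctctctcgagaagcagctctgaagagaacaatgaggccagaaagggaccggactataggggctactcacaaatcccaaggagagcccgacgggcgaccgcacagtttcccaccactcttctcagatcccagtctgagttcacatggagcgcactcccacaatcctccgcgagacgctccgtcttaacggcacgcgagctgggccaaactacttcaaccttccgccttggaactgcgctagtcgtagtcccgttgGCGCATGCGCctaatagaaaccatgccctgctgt
Ndufs6: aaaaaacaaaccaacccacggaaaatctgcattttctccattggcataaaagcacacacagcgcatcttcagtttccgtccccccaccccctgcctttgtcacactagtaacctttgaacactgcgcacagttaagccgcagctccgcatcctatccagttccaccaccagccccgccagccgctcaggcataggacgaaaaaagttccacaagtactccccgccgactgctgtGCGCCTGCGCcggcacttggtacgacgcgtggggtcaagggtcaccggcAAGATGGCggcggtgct
Ndufa11: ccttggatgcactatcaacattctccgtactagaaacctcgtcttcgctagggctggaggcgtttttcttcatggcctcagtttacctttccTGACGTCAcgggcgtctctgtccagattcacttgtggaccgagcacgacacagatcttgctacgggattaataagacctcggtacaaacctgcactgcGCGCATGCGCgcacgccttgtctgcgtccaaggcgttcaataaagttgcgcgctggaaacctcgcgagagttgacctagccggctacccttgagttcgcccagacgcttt
Ndufs3: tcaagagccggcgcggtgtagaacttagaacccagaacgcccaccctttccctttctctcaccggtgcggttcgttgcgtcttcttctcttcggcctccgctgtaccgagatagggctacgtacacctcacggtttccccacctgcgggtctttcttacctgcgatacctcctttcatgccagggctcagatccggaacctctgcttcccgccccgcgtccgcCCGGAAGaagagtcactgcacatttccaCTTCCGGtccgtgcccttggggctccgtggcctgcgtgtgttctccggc

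The NRF1 motif was in the windows of 9 members (23.1% of 39), against 5.19% of all 27025 genes with a window, where a gene with several windows counts once. These members were Ndufa5, Ndufa6, Ndufa8, Ndufa11, Ndufaf4, Ndufaf5, Ndufb4, Ndufs5 and Ndufs6. The YY1 motif was in 7 (17.9% against 3.19%), all of them on the gene's own strand. CRE was in Ndufa10, Ndufa11 and Ndufb2 (7.69% against 2.03%) and ETS in 5 members (12.8% against 9.93%). The estrogen-related receptor motif TCAAGGTCA was in none of the members' windows and in those of 0.466% of all genes. SP1 (GGGCGG) was in 51.3% against 38.2%, and CCAAT in 33.3% against 41.1%. The capitals of different motifs did not overlap in the windows shown, and a match is a description of letters, not evidence that a factor was bound.

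Total counts ranged from 17357799 to 22146406 per library. Neuronal markers summed to 4663 to 5655 CPM, counts scaled to library size, in brain and to 2.64 to 29.7 elsewhere, and proximal tubule markers and fast 2B fibre markers were likewise concentrated in kidney and gastrocnemius. Markers of brain region did not match between the groups. Cerebellar markers summed to 4720, 4286 and 125 CPM in SeMSNs brain libraries 1, 2 and 3, against 118 to 219 in the controls, and striatal markers to 295 to 474 against 510 to 1863. The 3 hypothalamic markers Hcrt, Oxt and Avp were at 0 in all SeMSNs brain libraries. Brain controls also differed among themselves, since control 2 had hypothalamic markers at 19 CPM against 178 and 194 in controls 1 and 3, and fast 2B muscle markers at 1175 against 80.5 and 25.6. The brain comparisons are therefore given with and without SeMSNs libraries 1 and 2 and without control 2.

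In old controls, complex I transcripts were abundant in all 3 tissues and lowest in brain. Levels between genes are compared as FPKM, fragments scaled to gene length and library total, as deposited by the authors. The median member was at 17 FPKM in brain, 35.8 in kidney and 32.4 in gastrocnemius. The members' share of all counts was 0.203% ± 0.022 (SD, n = 3) in brain, 0.422% ± 0.053 in kidney and 0.409% ± 0.038 in gastrocnemius. In bulk tissue, fewer cells of a type and less RNA per cell cannot be told apart.

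Ndufb9, an accessory subunit of the membrane arm, had the highest FPKM in every tissue. It stood at 112, 98.8 and 110 FPKM in brain controls 1, 2 and 3, at 271, 246 and 194 in kidney and at 226, 237 and 262 in gastrocnemius. Kidney and muscle libraries overlapped, and every brain library was below them. In brain Ndufb3 (86.1 ± 11.8 FPKM, SD, n = 3) and Ndufa8 (69.1 ± 8.64) followed, both accessory subunits. In kidney Ndufa6 (208 ± 52.4) and Ndufa1 (189 ± 41.2) followed, within their spread of each other. In gastrocnemius Ndufa6 was also among the 3 highest, at 157 ± 24.1.

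The low end was held by assembly factors and a few small subunits. In brain the lowest were Ndufaf6 (1.49 ± 0.211 FPKM), Ndufab1, the mitochondrial acyl carrier protein (1.65 ± 0.0601), and Ndufb4 (1.79 ± 0.33), which did not differ beyond their spread. In kidney they were Ndufaf4 (1.87 ± 0.291), Ndufa4l2 (1.97 ± 0.429) and Ndufb2 (2.55 ± 0.328). In gastrocnemius they were Ndufaf3 (1.49 ± 0.124), Ndufb4 (2.00 ± 0.175) and Ndufb2 (2.10 ± 0.349). Assembly factors had medians of 6.13, 4.42 and 5.88 FPKM in brain, kidney and gastrocnemius. Those of core subunits were 17, 30.8 and 39.4, and those of accessory subunits 20.2, 46.7 and 36.2.

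**Figure D1:**
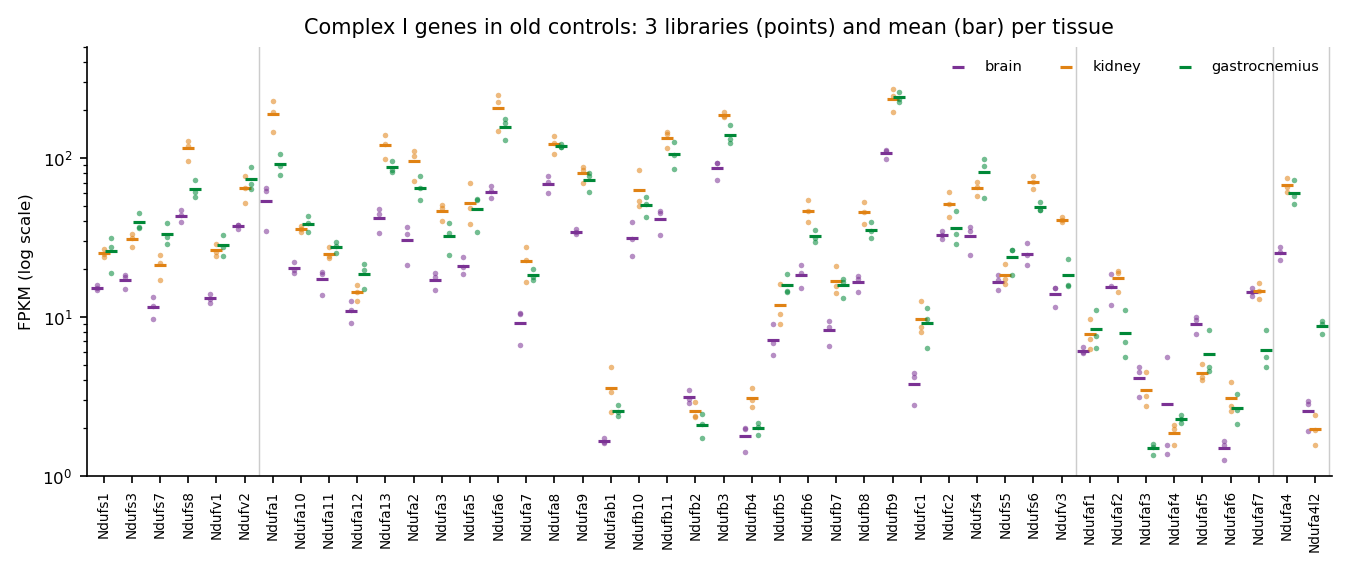
FPKM on a log scale (y) of 44 complex I genes (x) in old controls, with a point for each of the 3 libraries per tissue and a bar for their mean. Ndufb9 is highest in each tissue at 107, 237 and 242 FPKM in brain, kidney and gastrocnemius, and assembly factors lie mostly in the lower range.

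The order of genes rests on the length each FPKM was divided by. The deposited lengths were 0.9 to 7.81 times the principal mRNA of GENCODE M21, with a median of 1.82. Divided by that mRNA length instead, Ndufb10 led in brain (129) and Ndufb8 in kidney (332). The lowest were then Ndufa4l2 in brain (2.64) and kidney (2.03) and Ndufb4 in muscle (2.96). Ndufa12, Ndufb3, Ndufb4, Ndufb11, Ndufs3, Ndufs5 and Ndufs6 have a near-identical stretch in another gene, at 95% identity or more, so their counts are uncertain. The longest such stretch covered 36.2% (Ndufa12) to 75.7% (Ndufs3) of the principal mRNA. Another gene overlapped 22 members, 18 of them on the opposite strand, and whether counting used strand is not given in the sources used here. Ndufb2 (ENSMUSG00000002416, chr6:39592574-39603382, +, GRCm38) is overlapped by Gm42420 on its own strand and by Braf and Gm16272 on the other, so its reads cannot be told apart from theirs. No gene overlapped Ndufaf5 (ENSMUSG00000027384, chr2:140170649-140203689, +).

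Kidney and muscle exceeded brain for nearly all subunits and for fewer of the assembly factors, a difference between classes that was not tested. CPM in this comparison were scaled by TMM over all 18 libraries. Fold changes came from a fit of the 9 control libraries with its own TMM scaling. Genes were called at an adjusted p under 0.05 in edgeR's quasi-likelihood test. Between kidney and brain, 40 of 45 members were higher in kidney and 0 were lower, with a median log2 fold change of 1.51. Of all 17252 genes tested, 34.1% were called higher and 36.9% lower in kidney, with a median of −0.05. Between gastrocnemius and brain, 40 were higher in muscle and 0 lower, with a median of 2.00. There 32.1% of all genes were called higher and 39.4% lower, with a median of −0.18. These sizes depend on scaling. By limma on log2(FPKM + 1) and by total counts without the mitochondrial genome, the members' median for gastrocnemius over brain was 0.86 and 1.13. There 5 and 3 members were called lower. For kidney over brain the median was 0.95 and 1.28, with 1 lower in each. The shares of all genes called lower under these settings are not given here.

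By class, all 7 core and 28 of 29 accessory subunits were higher in kidney than in brain, but 4 of 7 assembly factors were. In muscle all 7 core subunits, all 29 accessory subunits and Ndufa4 and Ndufa4l2 were higher than in brain, along with 2 assembly factors. Those were Ndufaf1, part of a membrane-arm assembly complex (log2 fold change 1.52, adjusted p 0.000136 in edgeR), and Ndufaf6 (1.92, adjusted p 8.73e-05). The median difference between muscle and brain was 2.19 for core, 2.03 for accessory and 0.45 for assembly factors.

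Ndufa1, an X-linked membrane-arm subunit, was among the genes farthest apart between kidney and brain. It stood at 19.1, 10.5 and 17.8 CPM in brain controls and at 93.1, 76.9 and 64.0 in kidney controls. All kidney libraries were above all brain libraries, and the log2 fold change was 2.31 ± 0.241 (SE; adjusted p 1.43e-05, edgeR). Ndufa6 (2.25 ± 0.209), Ndufb11 (2.20 ± 0.169), Ndufa2 (2.15 ± 0.221) and Ndufv3 (2.05 ± 0.177) followed, all accessory subunits. Ndufaf5, which hydroxylates an arginine of Ndufs7, went the other way. It was at 15, 12.1 and 14 CPM in brain and at 8.87, 10.3 and 9.05 in kidney, where all libraries were lower. Its adjusted p was 0.0502 by edgeR and passed the threshold under 5 of the other settings that keep every library. With a library left out, 0 to 1 members were called lower in kidney.

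Ndufs7, a core subunit that holds an iron-sulfur cluster beside the ubiquinone site, stood at 27.1, 20.3 and 23.2 CPM in brain, 69.9, 59.9 and 52.2 in kidney and 186, 132 and 115 in muscle. It rose in that order without overlap between any pair of tissues, by 2.62 ± 0.22 in muscle over brain and 1.25 ± 0.21 in muscle over kidney (adjusted p 0.000502, edgeR). Ndufa6 (2.45 ± 0.211) and Ndufb11 (2.44 ± 0.17) were also among the 5 farthest apart between muscle and brain.

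Ndufa4l2, best known as a hypoxia-induced gene, had the largest difference of the 45 between muscle and kidney. It had 1.98, 1.32 and 1.85 CPM in brain, 2.26, 1.41 and 1.95 in kidney and 14.8, 10.7 and 12 in gastrocnemius. Brain and kidney overlapped, and muscle was above both, by 2.86 ± 0.277 over brain and 2.74 ± 0.278 over kidney on the log2 scale (adjusted p 8.5e-06 and 1.61e-05, edgeR). Its paralogue Ndufa4 had 51.4, 44.2 and 46.8 CPM in brain, 197, 168 and 172 in kidney and 225, 222 and 272 in muscle, and its difference between muscle and kidney was 0.43 ± 0.146 (adjusted p 0.0272).

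Muscle and kidney differed less from each other. Of the members, 19 were called higher in muscle and 3 lower, against 28.2% and 32.9% of all genes, with a median of 0.43 for members and −0.07 for all genes. Beside Ndufa4l2 and Ndufs7, the accessory subunit Ndufb5 (1.00 ± 0.232) and Ndufaf5 (0.99 ± 0.223) were among the members highest in muscle relative to kidney, but neither was called under limma or under total counts without the mitochondrial genome. The 3 called lower in muscle were Ndufaf7, a methyltransferase (−0.65 ± 0.176, adjusted p 0.00902), Ndufaf3, an early assembly factor (−0.63 ± 0.242, adjusted p 0.0436), and the flavoprotein-module subunit Ndufv3 (−0.58 ± 0.17, adjusted p 0.0137). Ndufaf3 was no longer called in 5 of the 9 fits that leave out 1 library, with −0.42 and an adjusted p of 0.183 by edgeR without kidney control 1. Ndufv3 was not called without gastrocnemius control 2 (−0.46, adjusted p 0.0511). Ndufaf7 had 36.7, 31.8 and 31.2 CPM in kidney and 18.3, 18.5 and 26.4 in muscle, without overlap. This balance depends on scaling. With total counts without the mitochondrial genome in place of TMM, 3 members were called higher in muscle and 15 lower. The members' median was then −0.22, while that of all genes moved from −0.07 to −0.71. Shares of all genes called under this scaling are not given here, so these counts have no background.

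Ordered by mean CPM, 36 members ran gastrocnemius, kidney, brain from high to low, and 5 ran kidney, gastrocnemius, brain. The remaining 4 were all assembly factors, 2 with gastrocnemius first and kidney last, and 2 with kidney first and gastrocnemius last. The order of muscle and kidney rests on TMM scaling. Muscle was higher than kidney in log2 fold change for 38 members with TMM, but for 15 with total counts without the mitochondrial genome and 17 by limma on log2(FPKM + 1), and the FPKM of Ndufa6 given above were higher in kidney. Ndufaf4, an assembly factor that works with Ndufaf3, was the least even member in brain, at 7.15, 6.54 and 25 CPM in controls 1, 2 and 3.

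**Figure D2:**
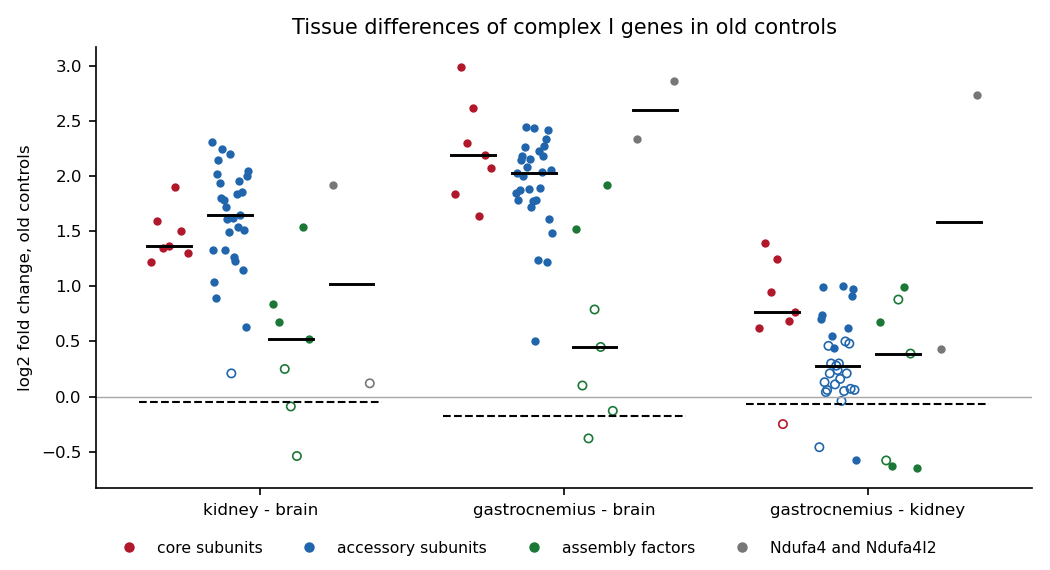
Log2 fold change in old controls (y) for each pair of tissues (x), with a point for each of the 45 genes marked by class. Core and accessory subunits lie around medians of 1.37 and 1.65 for kidney over brain and of 2.19 and 2.03 for gastrocnemius over brain, above the assembly factors at 0.52 and 0.45.

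With SeMSNs, complex I transcripts had higher values than in old controls in gastrocnemius, but no single gene passed the test. Of 45 members, 44 had a log2 fold change above 0, with a median of 0.53 and a range of −0.09 to 0.94. Over all 13150 genes tested, 48.9% were above 0 and the median was −0.01. Called by edgeR were 0 of 45 (0.0% of all genes were called higher and 0.0228% lower), and DESeq2 and limma also called 0. At an unadjusted p under 0.05, 30 members were higher, against 6.27% of all genes, and 0 were lower, against 6.71%. That count of 30 fell to 10 without SeMSNs library 1, to 14 without control 2 and to 17 without SeMSNs library 2. How the share of all genes moved in these fits of fewer libraries is not given here. All SeMSNs libraries were above the controls for 31 members, against 10.3% of all genes, and below them for 0, against 8.14%.

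In each SeMSNs library of muscle, nearly all members lay above the mean of the controls. Relative to the mean of the controls on the log2 scale, the members' medians were 0.04, −0.12 and 0.10 in controls 1, 2 and 3, and 0.67, 0.53 and 0.35 in SeMSNs libraries 1, 2 and 3. In these SeMSNs libraries 44, 44 and 42 of 45 members were above the control mean. The members' share of counts was 0.37% to 0.445% in the controls and 0.491% to 0.578% with SeMSNs, without overlap.

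**Figure D3:**
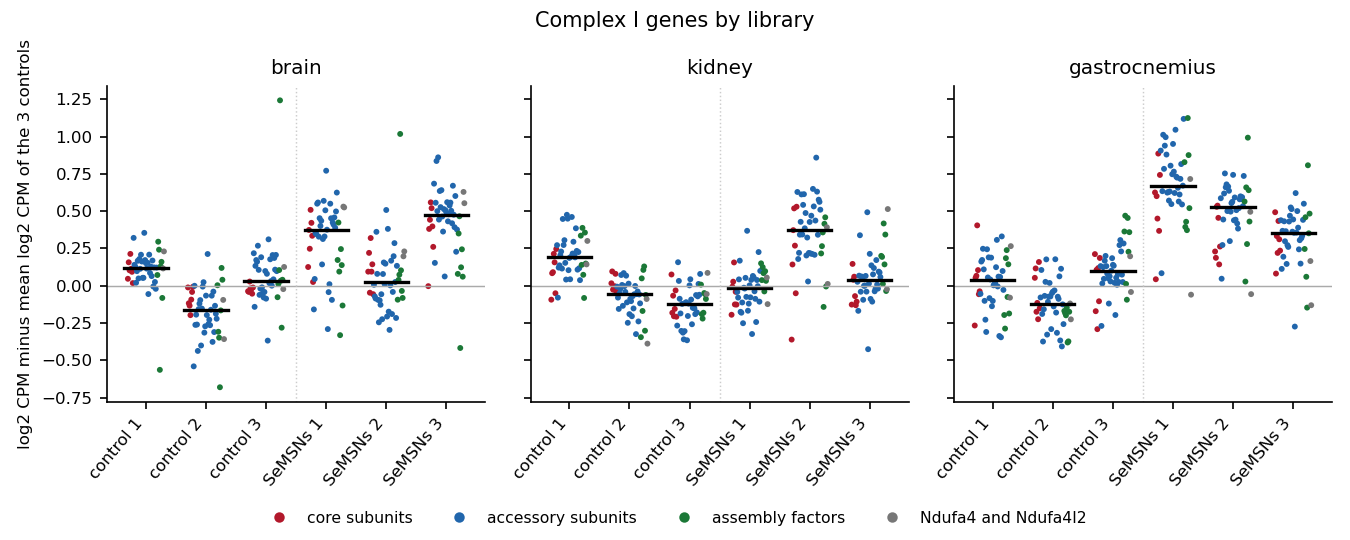
Log2 CPM of each complex I gene minus its mean log2 CPM in the 3 controls (y) in every library (x) of brain, kidney and gastrocnemius, with colours for gene classes. In gastrocnemius the SeMSNs libraries have medians of 0.67, 0.53 and 0.35, above the controls, whereas in kidney only SeMSNs library 2 stands above them at 0.37.

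Among assembly factors in muscle, Ndufaf5 had the largest fold change and the smallest p of any member. Its CPM were 11.5, 9.31 and 16.6 in controls and 26.4, 24.1 and 21.2 with SeMSNs. All SeMSNs libraries were above all controls, with control 3 nearest to them, and the means differed 1.92-fold (12.5 ± 3.73 to 23.9 ± 2.59 CPM, SD, n = 3). The log2 fold change was 0.94 ± 0.234 (adjusted p 0.298, edgeR), and without control 3 the adjusted p was 0.0249. Ndufaf6 (0.62 ± 0.237), Ndufaf1 (0.54 ± 0.223) and Ndufaf7 (0.45 ± 0.198) had unadjusted p under 0.05 as well. Ndufaf7 was at 12.2, 12.3 and 17.8 CPM in controls and 19.9, 18.7 and 19.4 with SeMSNs, so its groups did not overlap either. Ndufaf3 (0.40 ± 0.24), Ndufaf2, a chaperone of late assembly (0.26 ± 0.268), and Ndufaf4 (0.18 ± 0.204) had overlapping groups.

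Of the 29 accessory subunits in muscle, all had log2 fold changes above 0, with a median of 0.54, and 23 had unadjusted p under 0.05. Ndufb2, in the membrane arm, was at 13.7, 14.3 and 16.2 CPM in controls and 28.4, 24.6 and 20 with SeMSNs, a log2 fold change of 0.72 ± 0.188 (adjusted p 0.307, edgeR). Ndufv3 was at 56.5, 48.2 and 70.1 against 125, 95.9 and 84.3 (0.80 ± 0.219). In both genes the groups were apart, and SeMSNs library 1 was the highest. Ndufab1 was at 22.4, 20.7 and 22.2 against 38, 30.7 and 31.3 (0.61 ± 0.163), and Ndufa1 at 36.3, 35.7 and 41.3 against 70.6, 56.6 and 51.1 (0.65 ± 0.181). Ndufa13, also studied as the cell death regulator GRIM-19, was at 116, 96.4 and 111 against 185, 165 and 145 (0.62 ± 0.181). These 3 genes had no overlap between groups either, and their adjusted p was between 0.307 and 0.312.

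All 7 core subunits in muscle had log2 fold changes above 0, with a median of 0.43. An unadjusted p under 0.05 was found for 2 of the 7, and groups were apart for 4. Ndufs8, an iron-sulfur subunit near the ubiquinone site, was at 65.2, 51.9 and 65.8 CPM in controls and 112, 83.1 and 81.9 with SeMSNs (0.60 ± 0.198). Ndufs3 was at 143, 121 and 147 against 207, 197 and 172 (0.49 ± 0.181), and Ndufs1, the largest iron-sulfur subunit, at 234, 292 and 326 against 434, 330 and 396 (0.45 ± 0.209). Ndufv2 was at 173, 160 and 202 against 297, 213 and 209 (0.43 ± 0.21), so that all 4 of these had every SeMSNs library above the controls. Ndufs7 (0.38 ± 0.22) and Ndufv1, which binds NADH and the flavin (0.28 ± 0.178), had overlapping groups.

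Of the genes set apart, Ndufa4 was at 151, 147 and 183 CPM in controls and 262, 225 and 179 with SeMSNs (0.47 ± 0.206), where SeMSNs library 3 lay within the control range. Ndufa4l2 was at 9.96, 7.09 and 8.05 against 7.95, 7.97 and 7.57, and its log2 fold change of −0.09 ± 0.205 was the lowest of the 45. That value was 0.05 without control 1.

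Of the fibre type lists, only the fast 2B markers had groups apart in these libraries. Slow-fibre markers summed to 10494, 4477 and 1166 CPM in controls 1, 2 and 3 and to 2314, 828 and 3107 with SeMSNs. All 7 slow markers were lower in log2 fold change, but the sums overlapped. Fast 2A and 2X markers summed to 7941, 12942 and 7836 against 8740, 6647 and 16061, also with overlap. Fast 2B markers summed to 98844, 100842 and 109690 against 116302, 120951 and 138131, with all 7 higher, and the groups did not overlap. Macrophage markers summed to 26.1 to 40.1 in the controls and 13.4 to 22.4 with SeMSNs. No marker was at 0 in these lists, no marker was called by edgeR, and their part in the complex I values was not tested. Member genes were also shorter than most, with a median deposited length of 2303 bases against 4718. Removing the trend of counts on length in each muscle library left a median of 0.37 with 15 members at an unadjusted p under 0.05. The share of all genes at that p in this fit is not given here.

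**Figure D4:**
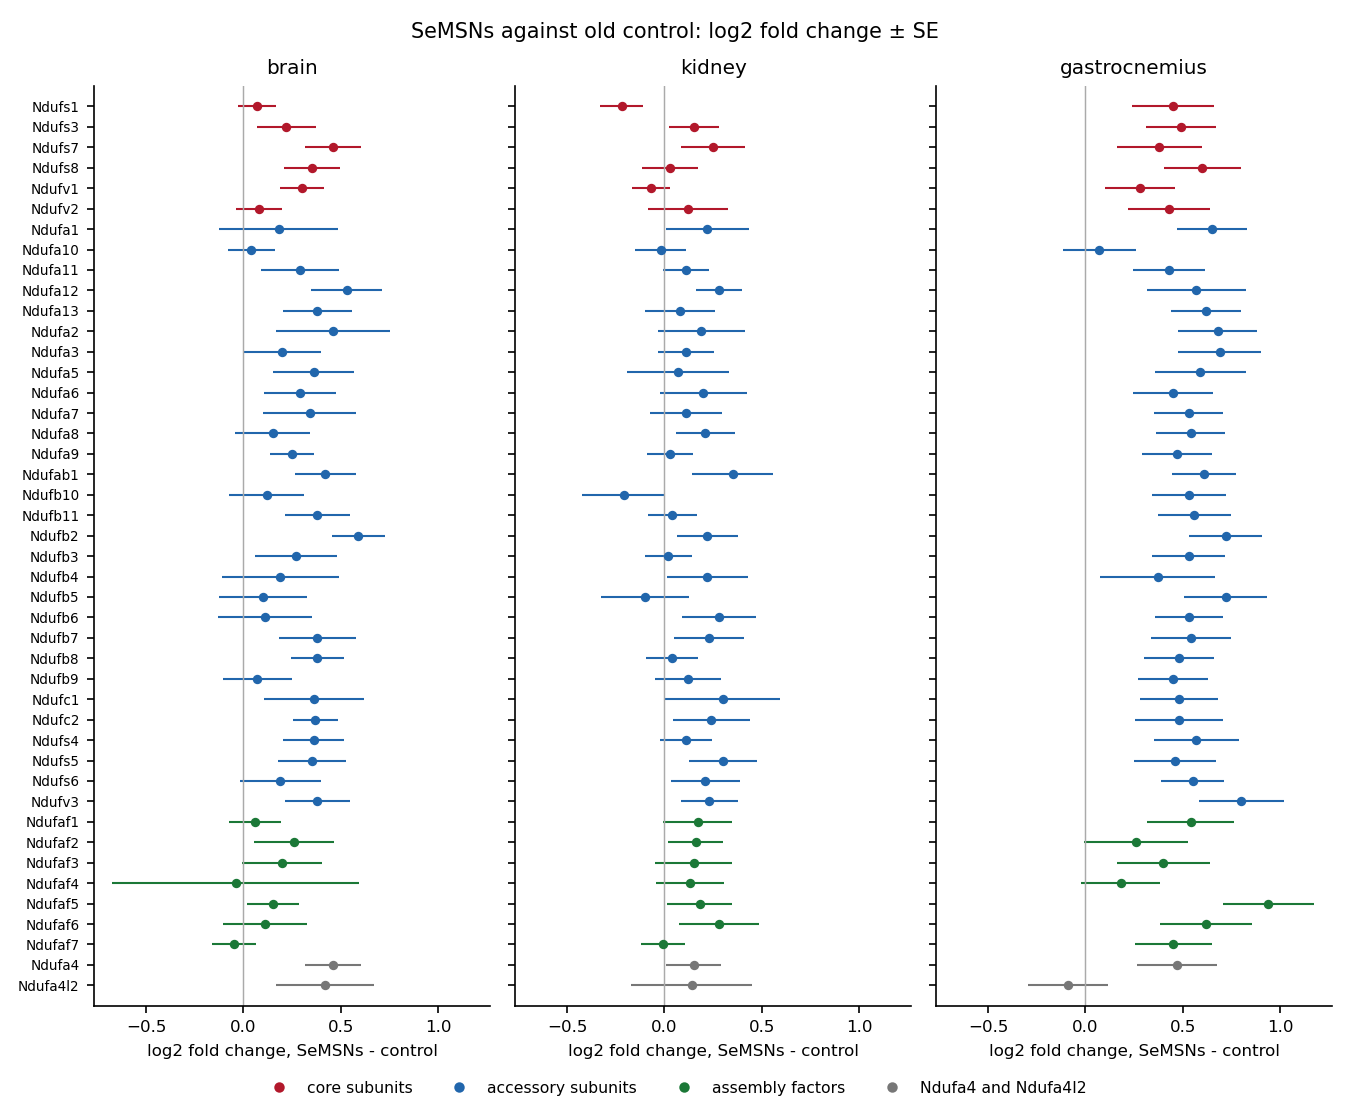
Log2 fold change of SeMSNs over old control with its SE (x) for 44 of the genes (y) in brain, kidney and gastrocnemius. In gastrocnemius every gene shown but Ndufa4l2 lies above 0, up to 0.94 for Ndufaf5, while in kidney the values run from −0.22 to 0.35.

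In brain, 43 of 45 members had a log2 fold change above 0, with a median of 0.29 and a range of −0.05 to 0.59, against 51.2% of all 16082 genes and a median of 0.01. By edgeR 0 were called, where 0.00622% of all genes were called higher and 0.0% lower. DESeq2 called 1 of 45 higher, Ndufb2, against 1.86% of all genes with an adjusted p, and limma 0. At an unadjusted p under 0.05 there were 10 members higher and 0 lower, against 7.4% and 8.03% of all genes. Without control 2 there was 1 member higher, and without SeMSNs library 2 there were 23, so the count varied with the library left out. Shares of all genes in those fits are not given here, so these counts have no background. Groups were apart for 12 members with higher and 0 with lower values, against 9.94% and 10.9%. All 7 core (median 0.30) and all 29 accessory subunits (0.34) were above 0, but 5 of 7 assembly factors were (0.11).

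Ndufb2 had the smallest p in brain, at 25, 21.5 and 21.2 CPM in controls and 38.4, 32.0 and 31.6 with SeMSNs. All SeMSNs libraries were above the controls, and the means were 1.51-fold apart (22.6 ± 2.12 to 34 ± 3.8 CPM). The log2 fold change was 0.59 ± 0.137, with an adjusted p of 0.255 in edgeR and 0.021 in DESeq2. Ndufs7 was at 39.2, 29.5 and 33.4 against 48.1, 42.2 and 49.8 (0.46 ± 0.144, adjusted p 0.268, edgeR). Ndufc2, a membrane-arm subunit, was at 38.4, 37.5 and 39.7 against 51.2, 44.2 and 53.6 (0.37 ± 0.117). In each of these genes the groups were apart and SeMSNs library 2 was at or near the low end of its group. Ndufa12 was at 22.5, 19.4 and 25 against 28.2, 28.5 and 39.6 (0.53 ± 0.183). Ndufa4, which had the next smallest p after Ndufb2, was at 74.3, 64.2 and 67.5 against 99.0, 78.6 and 106 (0.46 ± 0.143, adjusted p 0.264, edgeR).

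The other core subunits in brain ranged from 0.07 to 0.35. Ndufs8 was at 45.8, 39.7 and 41.7 CPM in controls and 56.7, 45.2 and 60.7 with SeMSNs (0.35 ± 0.144), and Ndufv1 at 81.8, 74.5 and 73.9 against 96.7, 84.7 and 101 (0.30 ± 0.113). Ndufs3 (0.22 ± 0.153), Ndufv2 (0.08 ± 0.116) and Ndufs1 (0.07 ± 0.0959) were closer to the controls. Ndufaf4 was at 10.3, 9.5 and 36 in controls and 12.1, 30.8 and 11.4 with SeMSNs, where control 3 and SeMSNs library 2 stood apart from the other 4 libraries. Its log2 fold change was −0.04 ± 0.634, the widest error of any member, and Ndufaf7 (−0.05 ± 0.112) was the only other member below 0.

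SeMSNs brain library 2 was less raised than libraries 1 and 3. The members' medians were 0.12, −0.16 and 0.03 in controls 1, 2 and 3 and 0.37, 0.02 and 0.48 in SeMSNs libraries 1, 2 and 3, so that the groups overlapped. Without SeMSNs libraries 1 and 2, which carried the cerebellar markers, SeMSNs library 3 alone remained, which was also the library with the highest median of the members. The median of 0.47 against the controls is then a value of 1 library, and it says nothing of the group. Control 2 had the lowest median of the members and stood apart in markers. All 10 striatal markers and all 4 tested hypothalamic markers were lower with SeMSNs, and all 9 tested cerebellar markers higher. Their part in the complex I values of brain was not tested. Neuronal markers summed to 4860 to 5655 CPM in controls and 4663 to 5018 with SeMSNs. Astrocyte markers summed to 1228, 1287 and 1325 against 1791, 1735 and 1472, without overlap, with 4 markers higher and 1 lower. Choroid plexus markers summed to 699, 704 and 544 against 908, 179 and 41.5, with all 6 lower in log2 fold change. The part of these lists was not tested either.

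Kidney showed the smallest differences. There 39 members were above 0 and 6 below, with a median of 0.15 against 0.0 for all 15051 genes, of which 50.4% were above 0. By edgeR 0 were called (0.0% of all genes were called higher and 0.00664% lower), DESeq2 and limma called 0, and an unadjusted p under 0.05 was found for 1 member with a higher and 0 with a lower value, against 2.52% and 3.59% of all genes. Groups were apart for 1 member with higher and 1 with lower values, against 6.59% and 6.9% of all genes, so neither count stood above the background. The median rested on SeMSNs library 2. The members' medians were 0.19, −0.06 and −0.12 in the controls and −0.02, 0.37 and 0.04 with SeMSNs, and without SeMSNs library 2 the median was −0.01, with 22 of 45 above 0.

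The 2 kidney members with groups apart went opposite ways. Ndufa12 was at 32.0, 28.1 and 27.4 CPM in controls and 32.7, 36.9 and 36.8 with SeMSNs, a log2 fold change of 0.28 ± 0.119 (adjusted p 0.772, edgeR). Ndufs1 was at 266, 287 and 299 against 248, 221 and 260, a log2 fold change of −0.22 ± 0.111 with the same adjusted p. Ndufs5 was at 27.6, 20 and 23.8 against 27.6, 35.2 and 25.2 (0.30 ± 0.174), Ndufab1 at 41.9, 27.9 and 23.4 against 38.9, 37.7 and 42.4 (0.35 ± 0.209), and Ndufv3 at 137, 123 and 141 against 143, 190 and 139 (0.23 ± 0.146). These 3 had overlapping groups, as had Ndufs7 (0.25 ± 0.164). Tubular injury markers summed to 106, 215 and 132 CPM in controls and 77.5, 74.7 and 70.6 with SeMSNs, all 6 lower. Endothelial markers summed to 188 to 256 against 164 to 177, and macrophage markers to 109 to 124 against 85.7 to 103. Proximal tubule markers summed to 12013, 11097 and 11547 against 13791, 12464 and 12934, without overlap, with 5 markers higher and 3 lower. No marker of these lists was called, and their part in the complex I values of kidney was not tested.

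Averaged over the 3 tissues in 1 fit of 18 libraries, all 45 members had log2 fold changes above 0, with a median of 0.30 against −0.02 for all 18001 genes, of which 46.6% were above 0. By edgeR 0 were called, and an unadjusted p under 0.05 was reached by 31 with higher and 0 with lower values, against 7.95% and 9.33% of all genes. Over all genes, 0.0167% were called higher and 0.0722% lower. This fit took the 18 libraries as independent, and whether tissues share mice is not known. Ndufb2 was closest to the threshold at 0.50 ± 0.095 (adjusted p 0.0514), followed by Ndufab1 (0.45 ± 0.106) and Ndufv3 (0.46 ± 0.109), both with an adjusted p of 0.078. DESeq2 called 13 members higher in this comparison, against 2.56% of all genes with an adjusted p, and limma called Ndufb2 alone, against 0.294% of all genes.

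Whether the treatment difference itself varied by tissue was tested as an interaction, and no member was called by edgeR, DESeq2 or limma for any pair. Over all genes, 0.0167% were called in each direction between gastrocnemius and brain, 0.0% higher and 0.0111% lower between gastrocnemius and kidney, and 0.0% between brain and kidney. The members' median was 0.33 for gastrocnemius over kidney, 0.24 for gastrocnemius over brain and 0.11 for brain over kidney. At an unadjusted p under 0.05 these gave 9, 2 and 0 members with a positive difference, against 2.82%, 5.16% and 3.91% of all genes. The smallest p values were those of Ndufs1 for gastrocnemius over kidney (0.66 ± 0.198, adjusted p 0.652), Ndufaf5 for gastrocnemius over brain (0.82 ± 0.268, adjusted p 0.259) and Ndufv1 for brain over kidney (0.33 ± 0.172, adjusted p 0.716). The higher values in muscle were thus not shown to differ from those in the other tissues.

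The subunits of complex I encoded by the mitochondrial genome did not go with the nuclear ones. In brain 6 of the 7 mt-Nd genes were below 0 (median −0.29), in kidney 5 of 7 (−0.13) and in gastrocnemius 5 of 7 (−0.06). Called by edgeR were none. At an unadjusted p under 0.05, 2, 0 and 0 were lower, against 8.03%, 3.59% and 6.71% of all genes. In brain mt-Nd5 was at 7345, 7643 and 6870 CPM in controls and 4953, 5087 and 5974 with SeMSNs, without overlap (−0.45 ± 0.134, adjusted p 0.26, edgeR). Of all genes in brain, 10.9% had groups apart with lower values. In muscle the library medians of the mt-Nd genes were 0.13, −0.20 and −0.33 with SeMSNs, within or below the control values of 0.25, −0.19 and 0.06.

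Nuclear genes of the other respiratory complexes had values on the same side as complex I. In gastrocnemius 39 of 43 genes of complexes II to V were above 0, against 48.9% of all genes, with a median of 0.39. At an unadjusted p under 0.05, 19 were higher, against 6.27% of all genes, and 0 were called by edgeR. Those with the smallest p included Atp5g1, a subunit of ATP synthase (0.67 ± 0.173, adjusted p 0.307). In brain 40 of 42 tested were above 0 (median 0.28), against 51.2% of all genes, and in kidney 29 of 41 (0.09), against 50.4%. At an unadjusted p under 0.05, 11 and 1 were higher, against 7.4% and 2.52% of all genes. General mitochondrial content genes had medians of 0.10, 0.0 and 0.17 in brain, kidney and gastrocnemius.

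Complex I assembly factors whose symbols do not begin with Nduf, 11 of 14 listed being in the table, were above 0 in 10 of 11 cases in gastrocnemius. There 48.9% of all genes were above 0. The list's median was 0.48, and 5 were higher at an unadjusted p under 0.05, against 6.27% of all genes. Timmdc1, which takes part in building the membrane arm, was at 11.9, 14.1 and 15.6 CPM in controls and 23.8, 21.9 and 20.9 with SeMSNs, without overlap (0.68 ± 0.175, adjusted p 0.307, edgeR). Tmem126b (0.67 ± 0.173) and Acad9 (0.55 ± 0.168), which act in the same assembly complex as Ndufaf1, had values close to it. The list's medians in brain and kidney were 0.14 and 0.09, with 0 called in any tissue.

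Regulators of mitochondrial biogenesis had mostly lower values in muscle, where 11 of 12 were below 0 with a median of −0.33 and 0 called by edgeR. Of all genes in muscle, 48.9% were above 0. Ppargc1a, a coactivator that drives transcription of respiratory genes, was at 70.3, 64.9 and 184 CPM in controls and 33.6, 35.5 and 37.7 with SeMSNs. Every SeMSNs library was below the controls, and control 3 stood far above the other 2 (−1.58 ± 0.379, adjusted p 0.293, edgeR). Tfam, which packages and transcribes the mitochondrial genome, was the member above 0, at 28.2, 27.6 and 31.4 against 41.8, 43.1 and 35.3 (0.47 ± 0.163, adjusted p 0.321). The regulators' medians were 0.17 in brain and 0.02 in kidney.

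**Figure D5:**
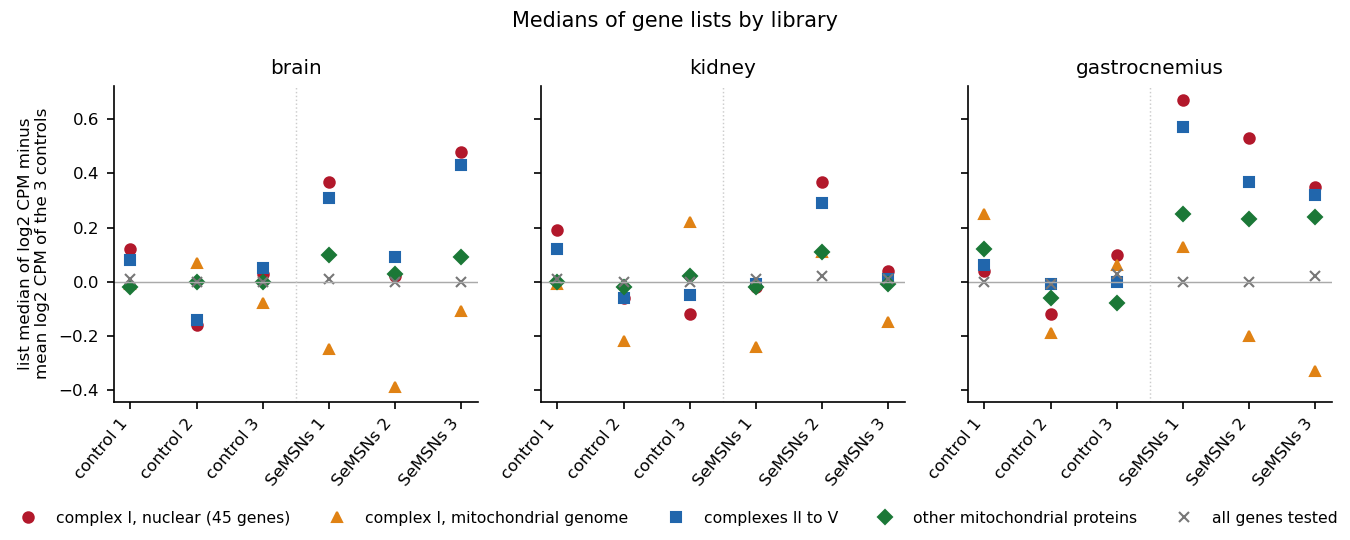
Median over each gene list of log2 CPM minus the mean log2 CPM of the 3 controls (y) in every library (x) by tissue. In gastrocnemius the SeMSNs libraries have complex I medians of 0.67, 0.53 and 0.35 and medians for complexes II to V of 0.57, 0.37 and 0.32, while mitochondrial content genes lie at 0.25, 0.23 and 0.24.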

How the data were processed

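PolyA RNA of 3 tissues was measured in 18 libraries. The deposited table holds whole-number counts per gene and library, and FPKM values that the authors made from counts, a gene length and the library total. The build is GRCm38, per the submitters' processing notes. For the aligner, the counting tool and its strand setting, a name is not given in the sources used here. Members and lists were chosen with earlier results of these data known.

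Counts were fitted per tissue in R 4.3.3 with edgeR 4.0.16 (filterByExpr, minimum count 10, minimum total 15, TMM, glmQLFit, glmQLFTest, Benjamini-Hochberg over all genes tested, threshold 0.05). Contrasts over tissues used 1 fit of all 18 libraries, and control tissues 1 fit of 9 libraries. Each SE was taken as the size of the fold change on the log2 scale over the root of the F statistic. Alternatives were DESeq2 1.42.0, limma 3.58.1 on log2(FPKM + 1) and log2(FPKM + 0.1), other scalings and filters, a length offset, a replicate block and each library left out. The steps were run on simulated counts with known changes. How many of those changes were recovered is not given here.

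Named were, per tissue, the 6 members with the smallest p, in control tissues the 5 with the largest fold change each way past the threshold, the 3 highest and lowest by FPKM, the core subunits, Ndufa4, Ndufa4l2, the Ndufaf genes and up to 4 genes of a list. 1 of these genes is not reported here and is left out of the text and of the plots by gene. Ndufb8 and Ndufb10 were named after their values were seen. With 17357799 to 22146406 counts per library, 1 count was near 0.06 CPM, which covers counting error only. Replicates differed beyond sampling noise in every group (chi-square per degree of freedom 16.8 to 137.4). Same-numbered control and SeMSNs libraries of a tissue had residual correlations of −0.109 to 0.0983 over 9 pairs, so numbers were not treated as pairs. Between tissues, same-numbered controls had correlations of 0.0157 to 0.0885 and same-numbered SeMSNs libraries of −0.0334 to 0.0496. Whether a mouse gave several tissues was not tested, and fits over tissues took their libraries as independent.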

Additional observations from a re-analysis of the deposited data

How the results depend on the processing

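For SeMSNs against control, counts of called members and medians kept their side under the alternatives except as follows. DESeq2 called 1 member in brain (Ndufb2, adjusted p 0.021, range over its alternatives 0.021 to 0.609) and 13 for the effect over 3 tissues, where RLE scaling and limma on log2(FPKM + 1) each called 1. With a library left out, 0 to 1 were called in brain (1 without SeMSNs replicate 3), 0 in kidney, 0 to 1 in gastrocnemius (Ndufaf5 without control replicate 3, adjusted p 0.0249, range over its alternatives 0.0249 to 0.718), 0 to 3 over the 3 tissues (3 without brain SeMSNs 3 or gastrocnemius control 3), and 0 to 2 for gastrocnemius against brain (Ndufaf5 and Ndufaf7, without gastrocnemius control 3). Medians ranged from 0.19 to 0.39 in brain (0.19 without SeMSNs 3, 0.20 without control 2), −0.01 to 0.25 in kidney (−0.01 without SeMSNs 2, 0.07 without control 3, 0.25 without control 1), 0.43 to 0.60 in gastrocnemius and 0.24 to 0.36 over tissues. For brain against kidney the median ran from −0.00268, without kidney control 1, to 0.26. For gastrocnemius against brain it ran from 0.11 to 0.36. Members at an unadjusted p under 0.05 ran from 1 (without control 2) to 23 (without SeMSNs 2) in brain, and from 10 (without SeMSNs 1) to 32 in gastrocnemius, with 14 without control 2 and 17 without SeMSNs 2. Removing the length trend gave a gastrocnemius median of 0.37 and put Ndufaf2 at −0.000755. Ndufa4l2 ran from −0.20, without gastrocnemius control 2, to 0.05, without gastrocnemius control 1. With a replicate block, 0 members were called in each tissue and over tissues, with medians of 0.27, 0.14 and 0.52 in brain, kidney and gastrocnemius, and 20 gastrocnemius members were at an unadjusted p under 0.05. The block gave control and SeMSNs libraries of the same number a shared term, so it cannot show whether tissues share mice. In old controls, DESeq2, RLE scaling, all 18 libraries, limma and total counts without the mitochondrial genome each called 1 member lower in kidney than in brain (Ndufaf5), and 0 to 1 were called with a library left out. Limma and total counts without the mitochondrial genome called 5 and 3 lower in gastrocnemius than in brain, 4 and 3 higher in gastrocnemius than in kidney, and 13 and 15 lower, with medians for gastrocnemius against kidney of −0.15 and −0.22. The same 2 settings gave medians of 0.95 and 1.28 for kidney against brain and 0.86 and 1.13 for gastrocnemius against brain. With a library left out, 16 to 22 were called higher and 1 to 4 lower in gastrocnemius than in kidney (1 without gastrocnemius control 2). Ndufaf3 was no longer called without kidney control 1 (−0.42) and in 5 other fits, and Ndufv3 without gastrocnemius control 2 (−0.46). Ndufb5 (0.41 and 0.34) and Ndufaf5 (0.31 and 0.35) were not called under limma and total counts without the mitochondrial genome. Median levels per principal mRNA length, an alternative chosen after seeing the data, were 41.5, 91.2 and 86.4, and the gastrocnemius FPKM median was 30.4 to 33.4 with a library left out. Except for the DESeq2 calls in brain and over tissues and the limma call over tissues, shares of all genes are not given for these alternatives. Counts of members under them therefore have no background. The causes were not tested.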
